A study of Homo sapiens with 2 samples.

Results

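Solute carriers are membrane proteins that move amino acids, sugars, metals, ions, vitamins and other small molecules across the cell surface and the membranes of organelles, and are named by family number and member (SLC39A1 is the first member of family 39). The peaks described here are those listed for solute carrier genes outside SLC25A, the family of mitochondrial carriers, in a map of ATF1 binding in HCT116 cells, a human colorectal carcinoma line. Members were the rows whose gene name begins with SLC, a family number, the letter A and a member number, leaving out SLC25A, antisense and pseudogene names. This gave 191 of the 15064 listed peaks, from 45 families. Of these, 4 carry such a name without being carriers: SLC4A1AP, SLC2A4RG, SLC9A3R1 and SLC9A3R2. SLC22A20 is annotated as a transcribed pseudogene in the current reference. Names with another letter (SLC35B1, SLC51A, the SLCO genes) fell outside the rule.

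The cells carried ATF1 with a 3xFlag tag, and chromatin immunoprecipitation (ChIP) with an antibody against the tag gave 1 library, with 1 input DNA library from the same line made without antibody. Only the ChIP peak table was analysed, and no replicate exists, so every value describes 1 library and no p-value is given. The level of tagged ATF1 relative to the cells' own ATF1 is not stated. The table lists 1 peak per gene name, with its tags (reads counted in the peak), a score and a fold enrichment over a background that is not specified. Tags, score and fold enrichment are the authors' values, and peaks are ranked by them within this table only. Peaks of at least 14.9-fold, here called strong, make up 10.1% of it.

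ATF1 is a basic leucine zipper factor of the CREB family. These factors bind the cAMP response element (CRE), whose palindrome is TGACGTCA, and also its core TGACG alone, and are phosphorylated downstream of cAMP and other signals. CREB-type factors are known for sitting at promoters close to the transcription start.

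Promoters under some of the strongest member peaks, and the solute carrier promoters that hold a complete CRE, are shown to relate each summit to these letters. Of the 16 genes with a strong peak at a start, 7 are shown. Those of SLC7A8 and SLC30A6 are left out because an annotated gene overlaps the window and no TGACG precedes the start, and that of SLC4A1AP because it is no carrier. The other 6 are filed under another name or rank lower. The set therefore favours promoters with the letters. The sequences are from RefSeq (GRCh38.p14, the assembly called hg38), read 5′ to 3′ on the gene's strand. Capitals mark TGACG or its reverse complement CGTCA, which overlap within a complete CRE. The windows end 1 base before the start where no annotated gene covers them, and are otherwise 30 bases around the site.
SLC10A3 (chrX:154490630-154490799, minus strand): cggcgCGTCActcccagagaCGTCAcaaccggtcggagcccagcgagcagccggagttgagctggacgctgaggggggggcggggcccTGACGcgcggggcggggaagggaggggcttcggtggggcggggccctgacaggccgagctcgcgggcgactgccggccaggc
SLC19A2 (chr1:169485971-169486140, minus strand): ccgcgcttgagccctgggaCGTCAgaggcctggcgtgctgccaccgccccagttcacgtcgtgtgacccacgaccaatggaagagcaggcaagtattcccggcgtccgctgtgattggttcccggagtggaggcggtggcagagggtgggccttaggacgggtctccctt
SLC30A9 (chr4:41990360-41990529, plus strand): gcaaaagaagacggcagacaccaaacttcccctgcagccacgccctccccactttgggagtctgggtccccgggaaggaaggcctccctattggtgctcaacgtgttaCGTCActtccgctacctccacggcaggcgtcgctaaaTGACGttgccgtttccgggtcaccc
SLC31A1 (chr9:113221374-113221543, plus strand): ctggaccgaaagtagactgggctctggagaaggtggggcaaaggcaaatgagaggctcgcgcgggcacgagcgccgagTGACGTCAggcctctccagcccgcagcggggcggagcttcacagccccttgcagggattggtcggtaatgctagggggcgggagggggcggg
SLC45A1 (chr1:8317944-8318113, plus strand): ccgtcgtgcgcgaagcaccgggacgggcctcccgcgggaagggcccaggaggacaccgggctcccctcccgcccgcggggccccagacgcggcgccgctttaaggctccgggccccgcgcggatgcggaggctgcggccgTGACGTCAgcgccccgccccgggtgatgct
SLC3A2 (chr11:62855939-62856108, plus strand): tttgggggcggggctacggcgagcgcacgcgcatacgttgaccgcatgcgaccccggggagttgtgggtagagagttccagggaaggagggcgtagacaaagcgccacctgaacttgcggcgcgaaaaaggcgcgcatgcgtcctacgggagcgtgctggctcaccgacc
SLC39A1 (chr1:153963637-153963666, minus strand): ttgctcctaacTGACGTCActcccggtctg
SLC18A2 (chr10:117241055-117241084, plus strand): ccctccggccgTGACGTCAgagccggacgg
SLC7A6 (chr16:68264485-68264514, plus strand): tccggcggcgggTGACGtggcggggcgggg

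Over all 16 genes with a strong start peak, shown or not, the promoter window at the start next to the peak held TGACG in 10 and lacked it in 6 (SLC3A2, SLC7A8, SLC33A1, SLC30A6, SLC35A4 and SLC4A1AP). In those 10 the nearest core lay a median of 42.5 bp from the summit, at most 142 bp, and within 30 bp in 4. The closest cases are among the promoters shown. At SLC10A3, a member of the bile acid carrier family with no settled substrate, the summit was 1 bp from the centre of the outermost of 3 cores. At SLC19A2, the thiamine transporter, it was 3 bp from the centre of the single core. At the start of SLC31A1, the high-affinity copper importer, it was 2 bp from the centre of the complete CRE. The summit was 8 bp from the CRE of SLC45A1, 26 bp from that of SLC18A2, the vesicular monoamine transporter, and 78 bp from that of SLC39A1. At SLC7A6 the nearer core was 22 bp away and at SLC30A9 142 bp away. The promoter window at the SLC3A2 start next to the strongest member peak held no TGACG on either strand, which says only that these letters are not in that window; another start of the gene does hold them.

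Solute carrier genes had an ATF1 peak at the gene start about as often as protein-coding genes in general. A start peak was counted for a gene when any listed summit, whichever gene it was named for, lay within 1 kb of 1 of the gene's starts in the RefSeq promoter table. Of 302 protein-coding solute carrier genes in RefSeq, 237 have a start in that table, and 112 of them had a start peak (47.3%, exact 95% binomial interval 40.8 to 53.8%). Over all protein-coding genes with a start the share was 50.4% (7964 of 15812). Counting strong peaks only, the shares were 6.75% (16 genes) and 8.76%, and for peaks at or above the median fold enrichment 26.6% and 30%. A summit within 1 kb of either end of the gene, which needs no strand, was found for 43% of the 302 solute carrier genes and 48% of all 19974 protein-coding genes. The mitochondrial SLC25A carriers had a start peak at 32 of 40 genes (80%, interval 64.4 to 90.9%). The 302 genes follow current names. The peak list gives some of them only under older names that the member rule misses, such as SLC71A1 (MFSD14A) and SLC66A3 (PQLC3). In families SLC60, SLC61, SLC66, SLC68, SLC71 and SLC75 every gene with a start had a start peak, as did 1 of 2 in SLC67. The share without these families was not computed. Intervals cover counting error over genes only, and genes are not replicates.

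The peaks listed under solute carrier names lay at the named gene's own start less often than the listed peaks of all protein-coding genes. For 154 of the 191 members the start is in the table, and 79 (51.3%, interval 43.1 to 59.4%) had their summit within 1 kb of it, against 66% (6506 of 9864) of all listed peaks of protein-coding genes. Within 200 bp the shares were 37.7% and 50.8%. Members with a summit between 1 and 10 kb from the start made up 21.4% (interval 15.2 to 28.8%), against 12.7% of all, and those over 10 kb away 27.3%, against 21.3%. The SLC25A peaks differed in the other direction, with 87.9% (29 of 33) within 1 kb and 0 of 33 over 10 kb (interval up to 10.6%). Genes of the members spanned a median of 38358 bp, against 28123 bp over all 15064 listed peaks. That larger set includes genes that do not code for protein, unlike the 9864 peaks above. Among the members, those with and without a peak at their start had similar spans, with medians of 38461 and 36914 bp. The part of gene length in this difference was not tested. In RefSeq names, 201 of the 302 solute carrier genes (66.6%, interval 60.9 to 71.9%) had any peak named for them, against 60.9% of protein-coding genes.

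**Figure D1:**
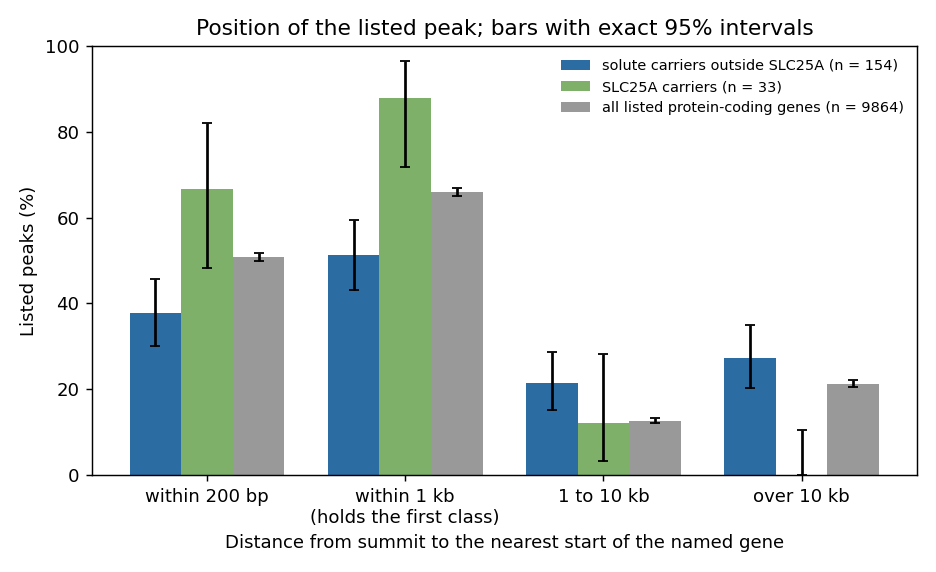
Share of listed peaks (vertical axis, percent) by distance from the summit to the nearest start of the named gene, for 154 solute carrier genes outside SLC25A, 33 SLC25A genes and 9864 protein-coding genes. Bars are shares with exact 95% binomial intervals; the second class holds the first. The solute carriers have the lowest share within 1 kb, 51.3%, and SLC25A the highest, 87.9%.

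By the authors' classes, 96 member peaks were exonic (50.3%, interval 43 to 57.6%), 60 intronic (31.4%), 30 upstream within 2 kb (15.7%, interval 10.9 to 21.7%) and 5 downstream. All listed peaks were 43.5% exonic, 33.9% intronic and 19.9% upstream. The 5 downstream peaks were those of SLC2A1, SLC15A4, SLC20A2, SLC6A3 and SLC43A1, named after their class was seen. That of SLC2A1, the widely used glucose transporter GLUT1, was the strongest at 11.53-fold and 336 tags, and its summit lay 34503 bp from the nearest listed start of the gene.

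Member peaks had a median fold enrichment of 6.69 (quartiles 4.91 and 8.93, range 3.08 to 41.92), beside 6.97 for all listed peaks (quartiles 5.2 and 9.76). Their median of 151 tags (quartiles 52.5 and 286) compared with 162. Strong peaks numbered 11 among the members (5.76%, interval 2.91 to 10.1%). Peaks at the own start held a median of 243 tags and 8.15-fold enrichment. Peaks away from it held 62 tags and 6.47-fold. All listed peaks of protein-coding genes split in nearly the same way, with 245 tags and 7.81-fold at the start and 62 tags and 6.32-fold away from it. Fewer than 50 tags were counted in 4 of the 79 peaks at the own start and in 30 of the 75 others. This count was not made over all listed peaks. Their lower quartile was likewise higher at the own start, 147 tags against 35 away from it. Longer peaks held more tags across the 191 members (Spearman's rho 0.85 between tags and length), while tags and fold enrichment had a rho of -0.04; these measures come from the same reads of 1 library.

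**Figure D2:**
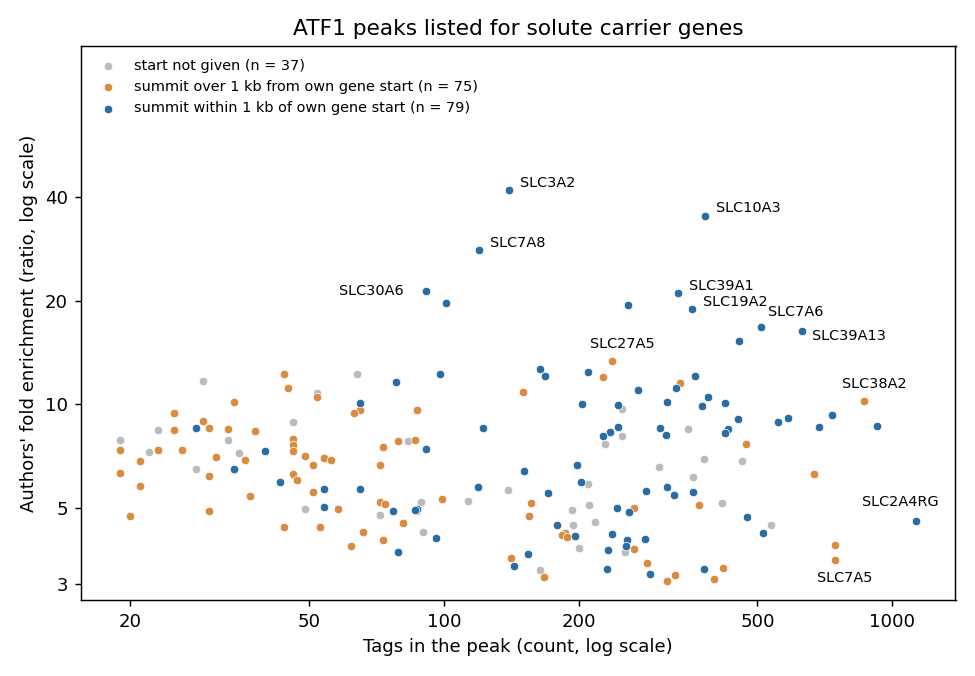
Each point is 1 of the 191 solute carrier peaks, with its tags (horizontal, log scale) and the authors' fold enrichment (vertical, log scale). The strongest points, from SLC3A2 at 41.92-fold down to SLC4A7 at 15.31-fold, all have their summit within 1 kb of the own start. The matching share over all strong listed peaks was not counted. The wide peaks of SLC2A4RG and SLC7A5 combine many tags with low enrichment.

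All 11 members with a strong peak had their summit at their own start, at a median distance of 112 bp and at most 404 bp. The matching share over all strong listed peaks was not counted. Across all listed peaks of protein-coding genes, those at the own start were also the stronger, with an upper quartile of 12-fold against 7.89-fold away from it. SLC3A2 led with 41.92-fold enrichment and 140 tags (exact Poisson interval 118 to 165) on chromosome 11, from 62855622 to 62856813, in the exonic class and 70 bp before a start. It encodes 4F2hc (CD98), the heavy chain that brings several amino acid exchangers to the cell surface. SLC10A3 had 35.38-fold and 382 tags (interval 345 to 422) on chromosome X, from 154490097 to 154491561, and its score of 2083.39 was the highest of all members. SLC7A8, encoding the light chain LAT2 that pairs with 4F2hc, had 28.03-fold and 120 tags at a start inside the gene's span, 29154 bp from the nearer outer end. SLC7A6, encoding a further light chain, y+LAT2, had 16.8-fold and 508 tags. SLC7A5, the light chain LAT1, was instead listed with an intronic peak of 3.53-fold, 29528 bp from its start, and the light chain gene SLC7A7 had no start peak.

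Among the remaining strong peaks, SLC30A6 had 21.37-fold and 91 tags, SLC39A1 21.05-fold and 333 tags, and SLC30A9 19.48-fold and 257 tags. SLC19A2, the thiamine transporter, had 18.9-fold and 357 tags. SLC39A13, a zinc importer of intracellular membranes, had 16.31-fold and 627 tags, and SLC4A7, a sodium-bicarbonate cotransporter, 15.31-fold and 456 tags. SLC4A1AP, an adaptor protein gene and no carrier, had 19.77-fold with its summit 404 bp before its start and also within 1 kb of an end of SUPT7L. The strongest member peak away from its own start was that of SLC27A5, a bile acid and fatty acid ligase of the liver, at 13.38-fold, 12470 bp from the start.

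At the other end of the range, SLC16A11 had 3.08-fold and 314 tags, SLC22A18 3.12-fold and 400 tags, SLC9A3R2 3.16-fold, SLC2A6 3.2-fold and SLC46A1, the proton-coupled folate transporter, 3.21-fold. Of these only SLC46A1 had its summit within 1 kb of its start. The widest peaks were those of SLC2A4RG (12227 bp, 1127 tags, 4.6-fold), SLC7A5 (12023 bp, 744 tags, 3.53-fold) and SLC38A10 (10615 bp, 746 tags, 3.9-fold). SLC16A3, the lactate exporter MCT4, held the second most tags, 926, in a peak of 7817 bp and 8.68-fold, 71 bp before a start. Among the 39 members of at least 9.47-fold with a given start, 66.7% (interval 49.8 to 80.9%) had their summit at it, and in 3 lower bins of similar size 44.7 to 47.4% did. For listed peaks of all protein-coding genes, whatever their enrichment, the share was 66%. Their shares by bin were not counted.

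Some of the strongest peaks at solute carrier starts were filed under a neighbouring gene. Of the 112 genes with a start peak, 25 (22.3%, interval 15 to 31.2%) had it only under another name, beside 18.3% of all protein-coding genes with a start peak. These peaks ranged from 3.28 to 56.31-fold with a median of 7.91, and 15 of the 25 genes are not named in the table at all. The start of SLC38A6, a member of the amino acid carrier family 38, had a peak named for TRMT5 with 56.31-fold enrichment and 331 tags, above every peak listed under a solute carrier name. The start of SLC31A1 had a peak named for FKBP15 at 37.22-fold and 333 tags. That of SLC33A1, the acetyl-CoA carrier of the endoplasmic reticulum, had a peak named for the uncharacterised LOC105374174 at 24.69-fold and 282 tags. The SLC35A4 start had a peak named for APBB3 at 19.85-fold and 511 tags, whereas the peak named for SLC35A4 itself had 5.13-fold and 74 tags and lay 2504 bp from the start. The peak named for SLC12A2, the sodium-potassium-chloride cotransporter NKCC1, had 12.27-fold but 44 tags and lay 25600 bp inside, while its start carried a peak named for LINC01184 with 3.55-fold and 574 tags. Conversely, 8 of the 191 member peaks (4.19%, interval 1.83 to 8.09%) lay within 1 kb of an end of another protein-coding gene. Among them were SLC11A1 (CTDSP1), SLC2A9 (DRD5) and SLC39A6 (ELP2). The matching share over all listed peaks was not counted.

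Over the substrate groups, the share of genes with a start peak ranged from 12.5% (1 of 8) to 100% (5 of 5). Of 13 groups, 3 had a share above the 50.4% of all protein-coding genes, and the interval lay wholly above it for 1, the zinc transporters, and wholly below it for 0. This call for zinc rests on the 1 kb window. With 5 kb the zinc share was again 76.2% but that of all protein-coding genes 57.2%, inside its interval, and with 500 bp, a setting chosen after seeing the data, zinc stood at 14 of 21 (66.7%, interval 43 to 85.4%) beside 46.8%. For peaks at or above the median fold enrichment it was 61.9% (interval 38.4 to 81.9%) beside 30%. With 500 bp the interval of the SLC35A group also lay above the share of all genes (47.8 to 100%, beside 46.8%). That of organic ion and drug transporters then lay below it (9.36 to 45.1%). No test between groups was run, and the intervals were not adjusted for the number of groups or families compared.

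**Figure D3:**
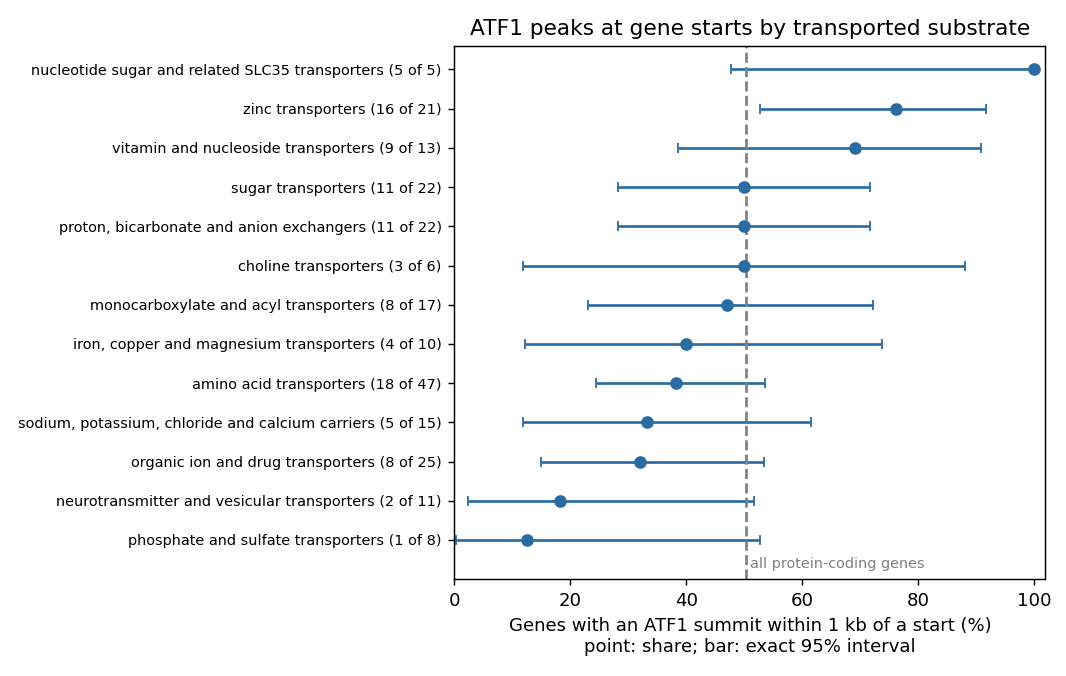
Share of genes with an ATF1 summit within 1 kb of a start (horizontal axis, percent) for 13 substrate groups of solute carriers, with exact 95% binomial intervals as bars and the 50.4% of all protein-coding genes as the dashed line. Zinc transporters, 16 of 21 genes, are the group whose interval lies above the line at this window, and phosphate and sulfate transporters, 1 of 8, have the lowest share.

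Zinc transporters come in a pair of families, SLC30 (ZnT), which lower cytosolic zinc, and SLC39 (ZIP), which raise it. A start peak was found at 16 of 21 (76.2%, interval 52.8 to 91.8%), made up of 10 of 12 SLC39 genes (83.3%, interval 51.6 to 97.9%) and 6 of 9 SLC30 genes (66.7%, interval 29.9 to 92.5%). Among the 19 families with at least 5 genes that have a given start, SLC39 was the only one whose interval lay above 50.4%. That too did not hold with the 5 kb window (83.3% again, beside 57.2%) or with 500 bp (8 of 12, interval 34.9 to 90.1%, beside 46.8%). The best start peaks of the zinc genes had a median of 9.9-fold, and 13 of the 16 were at or above the table's median of 6.97. Over all 112 solute carrier genes with a start peak the median was 8.2, and 63 had a start peak at or above 6.97. Among the 7964 protein-coding genes with a start peak, 4742 had one at or above 6.97. After SLC30A6, SLC39A1, SLC30A9 and SLC39A13 came SLC30A7 (13.5-fold, named for EXTL2), SLC39A3 (11.01-fold), SLC30A5 (10.13-fold), SLC39A9 (9.96-fold, named for ERH) and SLC39A7, the zinc channel of the endoplasmic reticulum (9.84-fold, named for RXRB). SLC30A1, the zinc exporter of the cell surface, had 9.29-fold and 734 tags, and SLC39A6 8.51-fold and 431 tags. The start peaks of SLC39A12 (8.55-fold) and SLC39A5 (7.33-fold) held only 28 and 40 tags, with summits 905 and 737 bp from the start, outside the 500 bp window. SLC39A8 had 5.46-fold. The lowest were SLC39A10 (3.72-fold) and SLC30A4 (4.3-fold), both named for a neighbour. Without a start peak were SLC30A2, SLC30A3, SLC30A10, SLC39A2 and SLC39A11, of which SLC30A3 and SLC39A11 were listed with peaks elsewhere. Of the 16 zinc genes with a start peak, 4 had TGACG in a promoter, 7 CGGAAG, 9 CCAAT and 11 GGGCGG. Over all protein-coding genes with a start peak these motifs were in 43.8%, 40.1%, 44.2% and 79.7%.

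All 5 SLC35A genes, which include the Golgi carriers of CMP-sialic acid (SLC35A1), UDP-galactose (SLC35A2) and UDP-N-acetylglucosamine (SLC35A3), had a start peak (interval 47.8 to 100%). Their best start peaks ranged from 8.09 to 19.85-fold, and 4 of the 5 held TGACG, beside 43.8% of all protein-coding genes with a start peak. SLC35A2 had 12.27-fold with 98 tags, and the SLC35A5 start also had 12.27-fold, with 262 tags in a peak named for ATG3.

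Vitamin and nucleoside transporters had a start peak at 9 of 13 (69.2%, interval 38.6 to 90.9%). All 3 SLC19 genes had one: SLC19A2 as above, its thiamine-carrying relative SLC19A3 at 10.11-fold with 65 tags, and the reduced folate carrier SLC19A1 at 4.22-fold with 514 tags. All 3 SLC46 genes did too, with SLC46A3 at 12.09-fold, SLC46A2 at 3.4-fold and SLC46A1 at 3.21-fold. Of the nucleoside carriers, SLC29A3 had 10.04-fold and SLC29A1, the equilibrative transporter ENT1, 5.75-fold at the start. At peaks of at least median strength the share of this group was 30.8%, beside 30% of all protein-coding genes.

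Amino acid transporters, the largest group, had a start peak at 18 of 47 (38.3%, interval 24.5 to 53.6%), with 4 of them strong. Of 13 carriers known from amino acid stress signalling or mTORC1 nutrient sensing, 11 were listed (60.9% of all protein-coding genes were) and 5 of the 11 with a given start had a start peak, near the 50.4% of all: SLC3A2, SLC38A9, SLC36A1, SLC1A5 and SLC1A4. SLC38A9, the lysosomal arginine sensor, had 12.68-fold and 164 tags, 119 bp before a start. SLC36A1, a lysosomal proton-coupled carrier, had 8.57-fold and 122 tags. SLC1A5, the glutamine carrier ASCT2, had 5.67-fold and 54 tags, and its relative SLC1A4 4.7-fold and 474 tags. SLC38A2, the stress-induced carrier SNAT2, had 864 tags at 10.25-fold, but its summit lay 1345 bp after the start and so was not counted. SLC38A1 had 668 tags and 6.27-fold, with a summit 1130 bp before the nearest start in the promoter table but 74 bp from the outer 5′ end of the gene in RefSeq, so that the start measure misses it. SLC7A1 (6.84-fold, 21 tags), SLC6A9 (5.2-fold, 72 tags) and SLC43A1 (3.57-fold, 141 tags) were listed with peaks far from their starts. SLC7A11, the cystine importer xCT, and SLC7A3 had no listed peak and no summit within 1 kb of either end of the gene.

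Organic ion and drug transporters had a start peak at 8 of 25 (32%), neurotransmitter and vesicular transporters at 2 of 11 (18.2%, interval 2.28 to 51.8%), and phosphate and sulfate transporters at 1 of 8 (12.5%, interval 0.316 to 52.7%). Many genes of these groups are known for roles in kidney, liver or neurons. The drug carrier group held SLC10A3 and SLC10A7 (11.15-fold), and in SLC22 the carnitine transporter SLC22A5 (5.53-fold, 171 tags) and its neighbour SLC22A4 (8.28-fold, 423 tags) were listed at their starts. Its members' peaks had a median of 46 tags, against 298 for the zinc transporters. The 2 neurotransmitter group genes were SLC6A16 (11.61-fold) and SLC18A2 (4.46-fold), and the phosphate carrier was SLC20A1, with 8.41-fold and 605 tags in a peak named for FLJ42351.

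Proton, bicarbonate and anion exchangers and sugar transporters each stood at 11 of 22 (50%), and choline transporters at 3 of 6. SLC4A7 and the Golgi sodium-proton exchanger SLC9A8 (12.46-fold, 209 tags) led the exchangers, and SLC50A1, the sugar efflux carrier SWEET1 (12.07-fold, 168 tags), the sugar carriers. Monocarboxylate and acyl transporters stood at 8 of 17 (47.1%), iron, copper and magnesium transporters at 4 of 10 (40%), and sodium, potassium, chloride and calcium carriers at 5 of 15 (33.3%). SLC11A2, the iron importer DMT1, had 9.14-fold and 586 tags at a start.

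Of 22 carriers of the intestinal epithelium, 13 were listed and 8 of the 18 with a given start had a start peak, near the 60.9% and 50.4% of all protein-coding genes. These were SLC4A7, SLC11A2, SLC26A6, SLC9A2 (3.77-fold, 232 tags), the glucose carrier SLC5A1 (4.93-fold, 86 tags), the butyrate carrier SLC5A8 (4.91-fold, 77 tags), SLC12A2 and the sodium-bicarbonate cotransporter SLC4A4 (3.87-fold, 255 tags). At SLC26A6 the start peak was named for MIR6824 (7.37-fold, 273 tags). SLC9A3, the absorptive sodium-proton exchanger, had 7.67-fold and 471 tags, 51470 bp from its start. SLC16A1, the lactate and butyrate carrier MCT1, had 6.85-fold and 461 tags. No start for it was given, but the summit lay 148 bp from an outer end of the gene. SLC26A3, the chloride-bicarbonate exchanger of colonocytes, SLC2A5, SLC6A14, SLC10A2, SLC30A10, SLC40A1 and SLC44A4 had no listed peak and no start peak. Of these only SLC44A4 had a summit within 1 kb of either end of the gene. Expression was not measured, and an unlisted gene may have a peak that was filed elsewhere or fell below the authors' limits.

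Member summits within 100 kb of each other formed 7 pairs, with 14 of the 191 members. Both members were of 1 family in 6 of the pairs. The closest were SLC16A13 (7.7-fold) and SLC16A11 (3.08-fold) on chromosome 17, with summits 6309 bp apart. The same count was not made over all listed peaks, and the spacing of the genes themselves was not measured.

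Genes with a start peak held CRE letters in a promoter more often than genes without one, in solute carriers and in all protein-coding genes alike. The promoter window ran from 250 bases before to 50 after the start, and both strands were searched. A gene counted when any of its starts had the motif, which need not be the start next to the peak. TGACG, which includes complete sites, was in 42% of the 112 solute carrier genes with a start peak (interval 32.7 to 51.7%) and in 26.4% of the 125 without (interval 18.9 to 35%). The same shares over all protein-coding genes were 43.8% and 25.1%, and 34.5% of all protein-coding genes with a start held it. In the 16 genes with a strong start peak, 12 held TGACG (75%, interval 47.6 to 92.7%), against 36.5% of the 96 with weaker start peaks. The corresponding values for all protein-coding genes were 67.4% and 38.8%. Counting only the start next to the strong peak, 10 of the 16 solute carrier genes held TGACG, as given above.

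The complete TGACGTCA was in 4 solute carrier promoters, those of SLC31A1, SLC39A1, SLC45A1 and SLC18A2, and 3.00% of all protein-coding genes held it. All 4 genes had a start peak, as did 335 of the 474 protein-coding genes that held the site. Among genes with a start peak it was in 3.57% of solute carrier genes (interval 0.982 to 8.89%) and 4.21% of all protein-coding genes. It was in 0 of the 125 solute carrier genes without one (interval up to 2.91%, beside 1.77% of all such protein-coding genes). At the 4 solute carrier CREs the fold enrichment ranged widely, from 37.22 at SLC31A1 and 21.05 at SLC39A1 to 9.88 at SLC45A1 and 4.46 at SLC18A2. The last was below the median of the table.

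Other promoter letters also differed with the peak. CGGAAG, the core of many ETS factor sites, was in 29.5% of solute carrier genes with a start peak (interval 21.2 to 38.8%) and 12% of those without (interval 6.87 to 19%). Both were lower than the 40.1% and 19.2% of all protein-coding genes, of which 29.7% held it. GGGCGG, the GC box, was in 80.4% and 48.8% of solute carrier genes, beside 79.7% and 48.5% of all (64.2% with and without a peak). CCAAT was in 42% and 36%, beside 44.2% and 40% (42.1% with and without a peak). Base composition of the promoters was not matched in these shares.

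**Figure D4:**
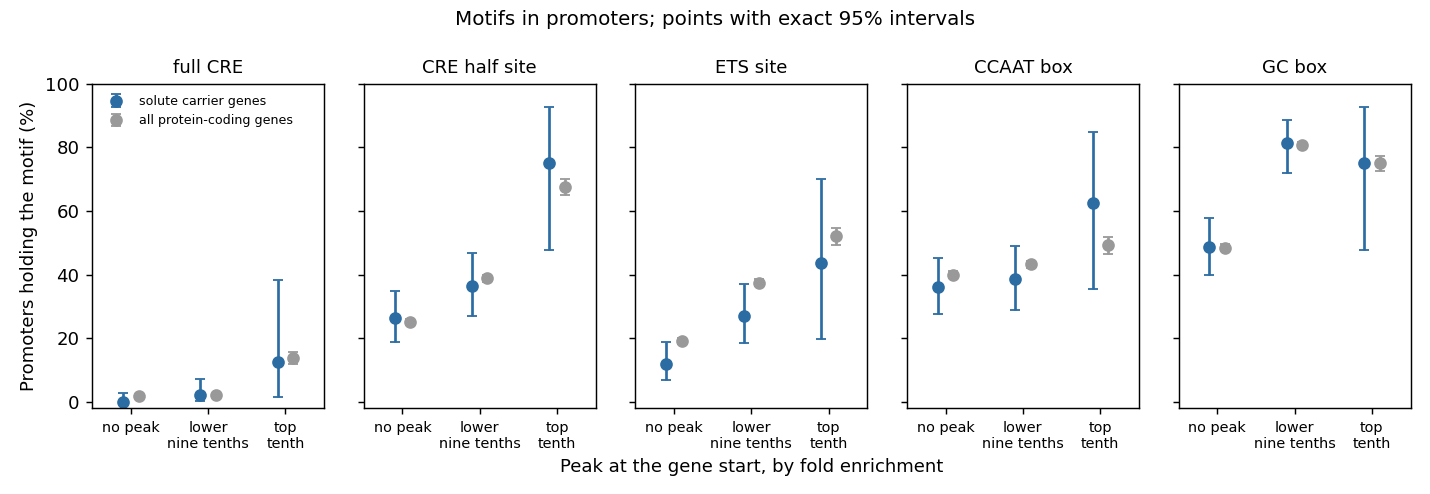
Share of genes whose promoter window holds each of 5 motifs (vertical axis, percent), for genes with no start peak, with a weaker start peak and with a strong one of at least 14.9-fold. Points are shares with exact 95% binomial intervals, blue for solute carrier genes and grey for all protein-coding genes; TGACG reaches 75% of the 16 solute carrier genes with strong start peaks.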

How the data were processed

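One ATF1 ChIP library of HCT116 cells was used, and 1 input library has no table analysed here. Per the labels' protocols, cells grown with 10% serum were fixed in 1% formaldehyde, and 5 µg of antibody was used on chromatin broken into pieces of 200 to 400 bp. CASAVA, Bowtie2, bedtools and the hg38 build are named per the submitters' processing notes; which program called and annotated the peaks, and against which control, is not stated there. Tags are raw read counts, as deposited by the authors. Fold enrichment, a deposited ratio, starts at 3, and the score, also deposited, starts at 50 and has no stated formula. Library depth is unknown; 1 line without a position was left out.

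The members, gene lists and substrate groups were chosen with earlier results of these data known. SLC66 was placed with the amino acid transporters. A further 13 solute carrier genes were in no substrate group, and 8 of the 12 with a start had a start peak (66.7%, interval 34.9 to 90.1%). Of the 191 names, 187 matched a current RefSeq symbol and 4 an older one. Starts came from the RefSeq promoter table (GRCh38.p14), which gives strand; it covers 15812 of 19974 protein-coding genes, and 67 of the 237 solute carrier genes have several starts. Named genes were the strongest 12 and weakest 5 members, the leading 3 and weakest of each group or larger family as far as described, both gene lists, the peaks widest or with most tags, genes with a complete CRE and genes with a peak filed under a neighbour. The counting code was run on simulated data with 200 planted peaks and 200 planted sites (100% recovered). The peaks were planted inside the 1 kb window and the sites as exact letters. This checks the code only and does not measure accuracy in these data. Python 3.11.15, numpy 2.4.6, pandas 2.3.3, scipy 1.17.1 and matplotlib 3.10.9 were used.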

Additional observations from a re-analysis of the deposited data

How the results depend on the processing

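The share of solute carrier genes with a start peak, 47.3%, was 57% with a 5 kb window (57.2% of all protein-coding genes), 26.6% for peaks at or above the median fold enrichment (30% of all) and 6.75% for peaks of at least 14.9-fold. It stayed within its interval with a 500 bp window (43.5%), any overlap (51.9%), either gene end (43%), SLC25A genes included (52%) and, chosen after seeing the data, carriers only (46.6%). The count of substrate groups above the share of all protein-coding genes rose from 3 to 8 with a 5 kb window and was 4 for peaks at or above the median; that of families rose from 6 of 19 to 9 and 8. With a 500 bp window, chosen after seeing the data, the counts were 5 and 8. The intervals of zinc transporters and of SLC39 lay above the share of all genes with 1 kb and for peaks at or above the median. They included it with 5 kb and 500 bp. That of SLC35A (47.8 to 100%) lay above it with 500 bp (46.8%) and for peaks at or above the median (30%). For organic ion and drug transporters it lay below with 500 bp (9.36 to 45.1%). For the SLC17 family it lay below with 5 kb (0.316 to 52.7%, beside 57.2%). The complete CRE was in 3.57% of solute carrier genes with a start peak, and TGACG, which it contains, in 42%. Median fold enrichment, 6.69, was 8.15 for summits at the own start (7.81 over all protein-coding genes) and 8.58 for peaks at or above the median score (9.06 over all listed peaks). Both lay inside the quartiles of single peaks, 4.91 and 8.93, which do not measure the error of a median. With SLC25A genes included the median was 6.91. The shares by class stayed within their intervals for peaks at or above the median fold enrichment. No paired analysis was possible because 1 library was analysed. Depth is unknown, so a missing peak does not show missing binding.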
